A study of Mus musculus with 4 samples.

Results

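Vip interneurons were taken from single-nucleus RNA sequencing of mouse brain as the nuclei, within the 2 libraries labelled cortex, that carried at least 2 UMIs (unique molecular identifiers, 1 per captured transcript) of Vip, at least 2 of Adarb2 and at least 1 of Gad1 and Gad2 together. They also held at most 1 UMI of Sst, at most 1 of Slc17a7 and at most 1 of Mog, Aqp4, Csf1r and Cldn5 together. This gave 84 of the 17168 nuclei of the library labelled cortex AAV-CTRL and 86 of the 20370 of the library labelled cortex AAV-VEGF-C, that is 170 of 37538 cortex-labelled nuclei and of 78728 nuclei in the series. The members were thus chosen by their UMIs of these 10 genes, which are given below as a description only.

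All mice were male C57BL/6J. They received an AAV9 vector into the cisterna magna and were sampled at 8 weeks of age. AAV-VEGF-C carried the full-length vascular endothelial growth factor C, and AAV-CTRL carried a secreted fragment of VEGF receptor 3 that does not bind the ligand, so that the controls also received a vector and a foreign protein. Tissue of 5 mice was pooled for each library and there was 1 library per group, so mice could not be told apart, no replicate check existed and no test was run. Each ratio compares a pair of libraries, and its 95% interval covers counting error only. Values are given in the order AAV-CTRL, AAV-VEGF-C, ratios are log2 of AAV-VEGF-C over AAV-CTRL unless stated otherwise, and levels are UMIs scaled to a sum of 1000000 over the same nuclei (CPM).

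Vasoactive intestinal peptide (VIP) interneurons are GABA-releasing neurons that arise in the caudal ganglionic eminence of the embryo and lie mostly in the upper layers of cortex. They are known for inhibiting other interneurons, mainly the somatostatin (Sst) cells, and thereby releasing pyramidal neurons from inhibition. Classical subtypes carry calretinin (Calb2), cholecystokinin (Cck) or the acetylcholine enzyme choline acetyltransferase (Chat), and the neuropeptides add slow signals to their fast GABA output.

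Vip and Cck are peptide genes classically switched on by cAMP signalling, and their promoters are shown because these peptides name the class and a subset within it. Both came from RefSeq on GRCm38.p6 and run from 250 bases before to 50 after the gene start, 5′ to 3′ on the gene's strand, with capitals marking TGACG or its reverse complement CGTCA, the core letters of the cAMP response element. The window of Vip was chr10:5638968-5639267 on the plus strand and that of Cck was chr9:121495645-121495944 on the minus strand.
Vip: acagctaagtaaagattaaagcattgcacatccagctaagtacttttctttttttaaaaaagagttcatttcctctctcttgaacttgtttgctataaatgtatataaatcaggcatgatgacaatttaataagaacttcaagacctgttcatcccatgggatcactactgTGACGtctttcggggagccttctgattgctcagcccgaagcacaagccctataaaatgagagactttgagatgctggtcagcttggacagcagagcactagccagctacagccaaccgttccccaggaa
Cck: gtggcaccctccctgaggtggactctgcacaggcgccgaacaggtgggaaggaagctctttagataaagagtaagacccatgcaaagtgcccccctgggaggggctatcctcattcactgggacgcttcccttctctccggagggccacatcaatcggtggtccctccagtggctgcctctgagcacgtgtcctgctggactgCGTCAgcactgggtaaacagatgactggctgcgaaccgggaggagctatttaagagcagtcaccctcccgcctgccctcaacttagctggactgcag
Each window held 1 match. Of 32851 promoters of this length, 20.8% held a match on either strand. The windows of Tac2, Npy, Igf1 and Cxcl14 held none.

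The 4 libraries held 17168 to 23724 nuclei and 63165470 to 78332657 UMIs. Genes of striatal projection neurons went against the region labels, with Ppp1r1b at 62.6 and 74.8 CPM in the libraries labelled cortex and 18.1 and 18.1 in those labelled striatum (AAV-CTRL and AAV-VEGF-C). Slc17a7, at 415 and 453 CPM against 56.8 and 41.0, and Vip, at 28.6 and 33.1 against 3.52 and 3.42, went with them. The tissue is called by its label throughout. Barcodes shared by the cortex-labelled libraries numbered 94, and no barcode named a Vip interneuron in both. Slc17a7 nuclei (3610 and 4497, at least 2 Slc17a7 UMIs and no Gad1 or Gad2) and Mog nuclei (286 and 374, at least 2 Mog UMIs, no Gad1, Gad2 or Slc17a7) served to show free RNA. A gene that either set expresses itself cannot be read this way. Other interneurons were taken as Sst nuclei (365 and 397), Pvalb nuclei (73 and 139) and Lamp5 nuclei with Adarb2 (50 and 77).

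Vip interneurons made up 0.489% (0.39 to 0.605) and 0.422% (0.338 to 0.521) of the nuclei of their library, a log2 ratio of −0.21 (−0.66 to 0.24). The interval spans 0, so no difference in their share was detectable at this depth. The 84 and 86 nuclei held 317910 and 352287 UMIs, with medians of 3589.5 and 3796.5 UMIs and of 2005.5 and 2039.5 genes per nucleus. Mitochondrial transcripts made up 0.559% and 0.779% of their UMIs, and a like gap was seen in Sst nuclei (0.74% and 0.942%) and Mog nuclei (0.88% and 1.22%). Nuclei and their UMIs were counted apart here, but a nucleus enters the count only if it holds enough UMIs of the rule's genes.

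Vip itself ran from 2 to 33 UMIs per nucleus with a median of 7.5 in AAV-CTRL, and from 2 to 57 with a median of 9 in AAV-VEGF-C. Its level was 2428 (2260 to 2606) and 2805 (2632 to 2985) CPM, against at most 10.6 CPM in Sst, Pvalb and Lamp5 nuclei, whose gates allowed at most 1 Vip UMI. Adarb2 ran from 2 to 236 and from 2 to 201 UMIs per nucleus, with medians of 31 and 38. Just inside the Vip limit lay 12 and 5 nuclei with 2 UMIs, and just outside lay 25 and 27 with 1 UMI that met every other criterion. Nuclei with 1 Vip UMI held 53.0 and 101 CPM of Igf1 and 194 and 144 of Sox6, while those with over 3 held 597 and 535 of Igf1 and 15.5 and 13.1 of Sox6. The members with exactly 2 Vip UMIs held 122 and 101 CPM of Igf1, nearer to the nuclei just outside the limit than to those over 3. Their Sox6 was at 122 CPM in AAV-CTRL, from 5 UMIs, and at 0 UMIs in AAV-VEGF-C. Other genes were mixed in these few nuclei. Cnr1, at 659 and 1116 CPM, was nearer to the nuclei over 3 (701 and 515) than to those with 1 UMI (239 and 372). Crh, at 73.3 and 0 CPM, was nearer to those with 1 UMI (17.7 and 59.1) than to those over 3 (260 and 274).

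The label was checked against genes outside the rule. Prox1, a transcription factor of interneurons from the caudal ganglionic eminence, was at 299 (242 to 365) and 236 (188 to 292) CPM in Vip interneurons and at most 50.5 CPM over the Sst, Pvalb and Lamp5 nuclei of both libraries. After thinning every nucleus to 2000 UMIs (4 and 3 shallower Vip nuclei left out), 42.5% and 42.2% of Vip nuclei had a Prox1 UMI, against 3.53% and 3.96% of Slc17a7 nuclei and 15.6% and 23.2% of Mog nuclei. Without thinning these shares were 61.9% and 59.3%, 6.01% and 6.56%, and 21.7% and 22.2%, at median depths of 4645.5 and 4749 UMIs for Slc17a7 and 1751.5 and 1807 for Mog nuclei. Htr3a, the ionotropic serotonin receptor of this lineage, was at 59.8 and 71.0 CPM and at most 5.22 in the other interneurons. Its thinned share was 12.5% and 9.64%, against at most 0.0707% in Slc17a7 and 0% in Mog nuclei. Lhx6 and Sox6, factors of interneurons from the medial ganglionic eminence, were at 9.44 and 5.68 CPM and at 31.5 and 14.2 CPM. Sst nuclei held 502 and 485 CPM of Sox6. Lamp5 nuclei held 34.9 and 41.8, so low Sox6 was not particular to Vip interneurons. These genes went with the label.

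Markers of other cells were present in Vip interneurons at like levels under both AAV labels. The 6 oligodendrocyte markers summed to 431 and 488 CPM, the 6 astrocyte markers to 884 and 871, the 5 microglia markers to 84.9 and 105, the 4 endothelial markers to 34.6 and 25.5 and the 5 excitatory neuron markers to 148 and 153. The 6 markers of striatal projection neurons, of which Pde10a is widely used by other neurons, summed to 1821 and 1800. Each of these 6 sums had a log2 ratio whose interval spans 0. The 6 suprachiasmatic markers summed to 4 and 2 UMIs, and 4 of them, Nms, Avp, Lhx1 and Six6, were at 0 UMIs in both libraries, with Six3 at 2 and 2 UMIs and Prok2 at 2 and 0.

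Vip interneurons were next set against the Sst, Pvalb and Lamp5 nuclei together to describe which genes accompany Vip. Of 7709 genes with at least 50 UMIs in each library, 120 were at least 2-fold higher in both libraries (1.56%) and 288 at least 2-fold lower in both (3.74%). Thinning to 2000 UMIs, after which fewer genes reach the minimum, left 62 and 163. Against Lamp5 nuclei alone, which are of the same lineage, 75 of 2276 genes were higher and 96 lower, of which 40 and 37 were among those counted against all 3. These counts are described without a test.

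Neuropeptides and secreted factors led the genes that were higher. Crh, corticotropin-releasing hormone, was at 230 (180 to 289) and 238 (190 to 295) CPM, against 7.23 and 8.48 in the other interneurons, a log2 difference of 4.99 (4.19 to 5.87) and 4.81 (4.15 to 5.52). Tac2, the neurokinin B precursor, was at 283 and 244 CPM against 9.94 and 5.43. Cxcl14, a secreted chemokine, was at 280 and 386 CPM against 19.9 and 23.4. Igf1, insulin-like growth factor 1, was at 519 (443 to 605) and 502 (431 to 582) CPM against 55.1 and 51.2. Igf1 was the most widely seen of these genes, with a UMI in 62 of 84 and 62 of 86 nuclei, while Crh was seen in 28 and 31, Tac2 in 29 and 35 and Cxcl14 in 37 and 40. In thinned nuclei Igf1 was in 56.2% and 53.0% of Vip nuclei and in 1.52% and 1.26% of Slc17a7 nuclei, and Crh in 22.5% and 26.5% against 0.53% and 0.491%. Wnt5b and Cbln2, a secreted Wnt and a synapse organizer, were also among the 15 leading genes, at 182 and 105 CPM and at 142 and 108 CPM. Of the 16 listed peptides 8 could be compared, and 3 were higher (Crh, Tac2, Cck) and 3 lower (Cort, Pdyn, Tac1) by 2-fold in both libraries. Over all compared genes 1.56% were higher and 3.74% lower. Cort was at 12.6 and 19.9 CPM against 78.2 and 108, and Tac1 at 25.2 and 28.4 against 86.3 and 69.6.

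**Figure D1:**
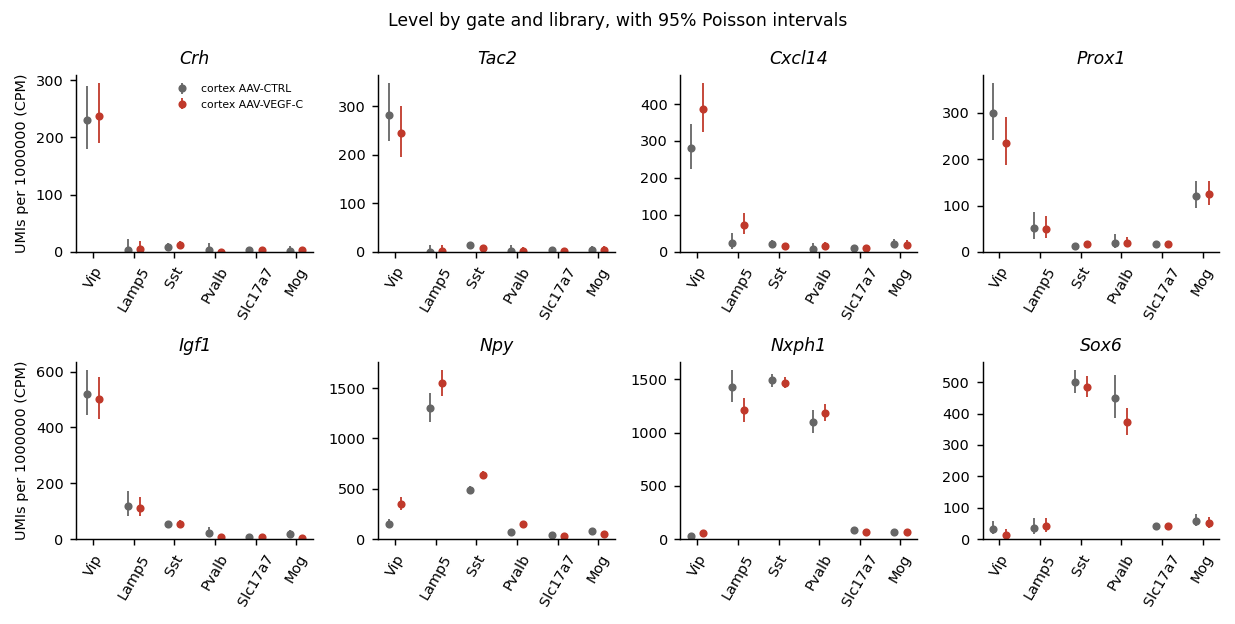
Level (UMIs per 1000000 UMIs of the gated nuclei, linear axes from 0) of 8 genes in 6 sets of nuclei of the libraries labelled cortex AAV-CTRL (grey) and cortex AAV-VEGF-C (red), with bars for 95% Poisson intervals. Crh, Tac2, Cxcl14, Prox1 and Igf1 were highest in Vip nuclei in both libraries, while Nxph1 was at 25.2 and 53.9 CPM there and between 1102 and 1492 CPM in the Lamp5, Sst and Pvalb nuclei.

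Receptors that read neuromodulators and peptides were also among the genes that were higher. Adra1b, an alpha-1 adrenergic receptor, was at 315 (256 to 383) and 287 (234 to 348) CPM against 30.7 and 34.9. Npy1r, a receptor of neuropeptide Y, was at 126 and 145 CPM against 14.0 and 18.3. Cnr1, the cannabinoid receptor of axon terminals, was at 708 and 636 CPM against 155 and 157, a log2 difference of 2.19 and 2.01. Grpr, the receptor of gastrin-releasing peptide, fell short of 50 UMIs over the compared nuclei, and was at 62.9 and 48.3 CPM in Vip nuclei and at most 3.31 in the other interneurons. Chrm2, a muscarinic acetylcholine receptor, was lower, with log2 differences of −2.90 (−4.79 to −1.52) and −2.36 (−3.59 to −1.37). Of 26 listed peptide receptors 6 could be compared, with 1 higher and 3 lower, and of 34 amine and acetylcholine receptors 14, with 1 higher and 3 lower. The shares of all compared genes were 1.56% higher and 3.74% lower. Tacr1, the substance P receptor, had 0 UMIs in AAV-CTRL and was at 2.84 CPM in AAV-VEGF-C, against 42.0 and 46.1 in the other interneurons. Vipr2, a receptor of VIP itself, was at 0 UMIs in Vip nuclei of both libraries, where 3 UMIs would be 9.44 and 8.52 CPM, and Vipr1 was at 12.6 and 17.0 CPM.

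Ion channels and synaptic genes divided between both directions. For all compared genes the shares were 1.56% higher and 3.74% lower. Of 34 listed potassium and HCN channels 33 could be compared, with 5 higher (Kcnb2, Kcnq5, Kcnt2, Kcnip1, Kcnn2) and 3 lower (Kcnt1, Kcnn3, Kcnh5). Kcnt2, a sodium-activated potassium channel, was at 645 and 644 CPM against 113 and 117, while its paralog Kcnt1 was at 18.9 and 31.2 against 66.9 and 67.9. Of 25 glutamate receptors 22 could be compared, with Grm8 and Grik4 higher and Gria3, Grin3a, Grik3, Grm3 and Grm5 lower. Grik4, a kainate receptor subunit, was at 333 and 420 CPM against 105 and 101, and Grin3a, an NMDA receptor subunit, at 75.5 and 96.5 against 409 and 340. Nxph1, a secreted neuronal glycoprotein, was the lowest of all by the ordering used, at 25.2 and 53.9 CPM against 1419 and 1364, a log2 difference of −5.82 (−7.03 to −4.84) and −4.66 (−5.39 to −4.02). Erbb4, the neuregulin receptor of interneurons, had a UMI in all 84 and all 86 nuclei, at 5678 and 5652 CPM, and its partner Nrg1 was lower, at 444 and 593 against 1372 and 1318.

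Genes of lineage and of GABA identity were read from gene lists. Of 8 caudal eminence genes 5 could be compared and 4 were higher (Prox1, Npas1, Nr2f2, Synpr), and of 7 medial eminence genes 5 could be compared and 3 were lower (Lhx6, Sox6, Satb1). Dlx6os1, a long RNA of the Dlx5/6 locus, was at 648 and 508 CPM against 179 and 158. In Lamp5 nuclei alone it was at 415 and 379 CPM, so much of this difference was shared with that gate. The 5 genes of GABA release and chloride balance, among them Slc32a1 at 201 and 193 CPM against 179 and 233, gave 0 higher and 0 lower. The 2 broad signalling lists gave counts near the 1.56% higher and 3.74% lower of all genes, so these counts set neither list apart. Of 47 BDNF signalling genes 44 could be compared, with 0 higher and 1 lower (Rps6ka2), and of 62 calcium and G protein genes 58, with 0 higher and 2 lower (Itpr1, Adcy5).

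Peptides varied widely between Vip nuclei. Cck ran from 0 to 41 UMIs and from 0 to 58, with a median of 1 in both libraries. Npy ran from 0 to 14 and from 0 to 23, Crh from 0 to 8 and from 0 to 18, and Tac2 from 0 to 14 and from 0 to 11, each with a median of 0. Calb2 never passed 2 UMIs, and gave 9 and 11 UMIs in all. A few nuclei held much of the Cck and Npy, while Igf1 was spread over most nuclei, with at most 8 and 10 UMIs in any of them.

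**Figure D2:**
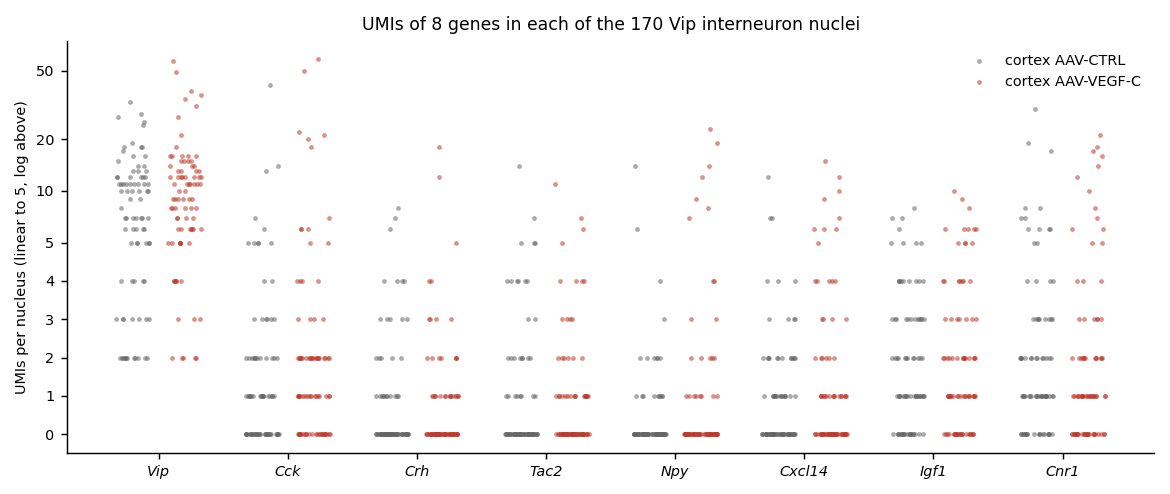
UMIs of 8 genes in each of the 84 AAV-CTRL (grey) and 86 AAV-VEGF-C (red) Vip interneuron nuclei, 1 point per nucleus, jittered sideways, on an axis that is linear to 5 and logarithmic above. Cck and Npy were at 0 or a few UMIs in most nuclei and reached 58 and 23 in single ones.

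By presence of a UMI, 6 and 7 nuclei held Calb2 without Cck, 46 and 56 Cck without Calb2, 3 and 3 both and 29 and 20 neither. The Calb2 shares were 7.14% (2.67 to 14.9) and 8.14% (3.34 to 16.1), and the Cck shares 54.8% (43.5 to 65.7) and 65.1% (54.1 to 75.1). A single Cck UMI does not mark expression here, because 46.2% and 55.4% of thinned Vip nuclei had one, against 41.7% and 57.7% of Mog nuclei. Slc17a7 nuclei were at 46.1% and 54.8%. Their share does not show free RNA alone, because 8.06% and 15.0% of them held at least 5 Cck UMIs before thinning. Calb2 was in 2.5% and 7.23% of thinned Vip nuclei, against 1.41% and 1.01% of Slc17a7 and 2.08% and 2.11% of Mog nuclei. Between the Calb2 and the Cck nuclei so defined, 1 of 1225 genes (0.0816%) was 2-fold higher in both libraries and 44 (3.59%) were lower. Pcdh9, a protocadherin, was at 467 and 600 CPM in the Calb2 nuclei and 1379 and 1824 in the Cck nuclei, which rests on 6 and 7 nuclei.

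A limit of 5 Cck UMIs, chosen after the values were seen, was therefore used to describe nuclei rich in Cck. They numbered 10 of 84 (11.9%, 5.86 to 20.8) and 12 of 86 (14.0%, 7.42 to 23.1), against 0.699% and 0.802% of Mog, 1.37% and 0.504% of Sst, 2.74% and 2.88% of Pvalb and 0% and 3.9% of Lamp5 nuclei. The share in Slc17a7 nuclei was 8.06% and 15.0%, inside the interval of the Vip share in both libraries, so this limit does not set Vip interneurons apart from Slc17a7 nuclei. Compared with the 54 and 45 nuclei that held at most 1 Cck UMI, 15 of 1221 genes (1.23%) were 2-fold higher in both libraries and 34 (2.78%) lower. Cnr1 led the higher genes, at 1942 and 1741 CPM against 440 and 295, a log2 difference of 2.14 (1.68 to 2.60) and 2.56 (2.06 to 3.08). It had a UMI in 10 of 10 and 10 of 12 of the nuclei rich in Cck, against 37 of 54 and 26 of 45. Those shares were not thinned. Nuclei rich in Cck were deeper, at medians of 4088.5 and 4914.5 UMIs against 3306.5 and 3461. Cannabinoid receptors are a known feature of Cck interneurons. Unc5d, a netrin receptor, was at 1160 and 451 CPM against 136 and 70.8, and Tac2 at 805 and 532 against 196 and 159. Among the lower genes were Grm7, a presynaptic glutamate receptor, at 403 and 887 CPM against 2132 and 2418, and the potassium channel subunit Kcnmb2, at 237 and 193 against 821 and 985. Calb2 was at 0 UMIs in all 22 nuclei rich in Cck, where 19 of the 170 Vip nuclei held a Calb2 UMI.

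Crh and Tac2 gave another division, also set after the values were seen. Both were present in 14 and 22 nuclei, Crh without Tac2 in 14 and 9, Tac2 without Crh in 15 and 13, and neither in 41 and 42. The nuclei with both held Cxcl14 in 13 of 14 and 20 of 22, where those with neither held it in 9 of 41 and 9 of 42. Those shares were not thinned, and the nuclei with both were deeper, at medians of 4003 and 3823 UMIs against 3247 and 3590. Of 1118 genes compared between these sets, 10 (0.894%) were 2-fold higher in both libraries, Crh and Tac2 among them, and 18 (1.61%) lower. Vwc2l, a secreted protein gene, was at 493 and 416 CPM against 64.7 and 52.5, Clstn2, a synaptic calsyntenin, at 2009 and 1673 against 438 and 473, and Adra1b at 566 and 505 against 230 and 181. Grik2, a kainate receptor subunit, was at 548 and 809 CPM against 2271 and 2657. Chat had a UMI in 8 and 6 nuclei, of which 3 and 2 also held Slc5a7, the choline transporter, and 3 and 2 held Calb2. Chat was in 6.25% and 6.02% of thinned Vip nuclei, against 0.106% and 0.164% of Slc17a7 and 0% of Mog nuclei.

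**Figure D3:**
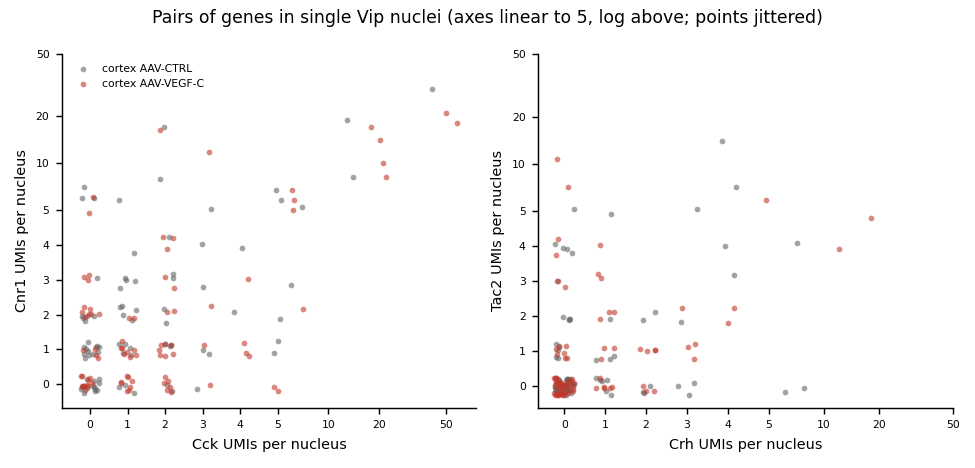
UMIs of Cck and Cnr1 (left) and of Crh and Tac2 (right) in single Vip interneuron nuclei of the AAV-CTRL (grey) and AAV-VEGF-C (red) libraries, with points jittered and axes linear to 5 and logarithmic above. All 9 nuclei with at least 10 Cck UMIs held at least 8 Cnr1 UMIs, while 36 of 170 nuclei held both Crh and Tac2.

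The AAV labels were then compared within Vip interneurons, to see whether the delivered growth factor went with a difference in these cells. Of 2755 genes with at least 50 UMIs over both libraries, 11 were at least 2-fold higher in AAV-VEGF-C (0.399%) and 15 at least 2-fold lower (0.544%), 0.944% in all. The median log2 ratio of all 2755 was −0.01, and 108 intervals (3.92%) lay above 0 and 114 (4.14%) below it. With a gene minimum of 200 UMIs, which fewer genes reach, 1 gene was higher and 0 lower. Intervals cover counting error only, and a gene carried by a few nuclei varies more than they allow.

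**Figure D4:**
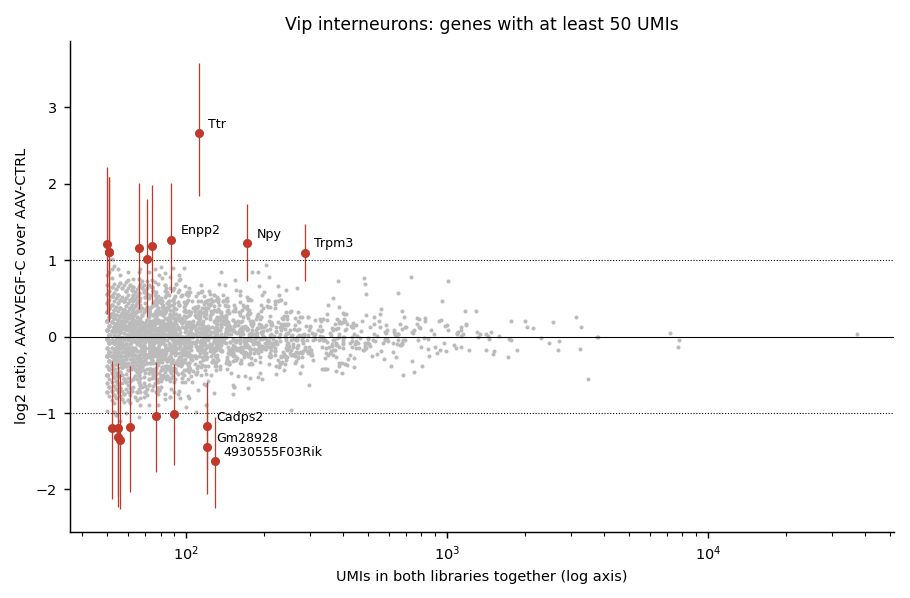
Log2 ratio of AAV-VEGF-C over AAV-CTRL in Vip interneurons against the UMIs of both libraries (log axis), 1 grey point for each of 2755 genes, with the 20 named genes in red with 95% counting intervals and dotted lines at 2-fold. Ttr stood highest at 2.66 and 4930555F03Rik lowest at −1.63, and the points narrow around 0 as UMIs increase.

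Among the 10 named higher genes, Ttr, Trpm3 and Enpp2 rested on 1 nucleus for much of their UMIs. Ttr, the transthyretin gene of choroid plexus, went from 14 to 98 UMIs, a ratio of 2.66 (1.84 to 3.58), and 59 of the 98 lay in 1 nucleus. That nucleus, of 5741 UMIs, was called a doublet by Scrublet, a tool that finds droplets with more than 1 nucleus, and also held 73 of the 202 UMIs of Trpm3 and 21 of the 64 of Enpp2, which choroid plexus expresses too. Without it the ratios were 1.35 (0.44 to 2.35) for Ttr, 0.48 (0.07 to 0.89) for Trpm3 and 0.72 (−0.04 to 1.5) for Enpp2, in place of 2.66, 1.10 and 1.27. Ttr was in 22.9% of thinned AAV-VEGF-C Vip nuclei and in 26.1% of Mog nuclei of the same library, against 7.5% and 13.5% in AAV-CTRL. In the other interneurons as a whole Ttr, Trpm3 and Enpp2 were lower in AAV-VEGF-C, at −0.46, −1.21 and −0.32, but in Lamp5 nuclei alone they were at 1.65, −0.14 and 1.32. In 5 other named higher genes no nucleus held more than 4 UMIs. Rps12, a ribosomal protein gene, had a UMI in 19 and 37 nuclei with at most 4 in any of them, a ratio of 1.19 (0.43 to 1.99). Ypel3 was seen in 20 and 38 nuclei, Gm26917 in 16 and 34, Metap2 in 13 and 30 and Rpl22l1 in 15 and 29. Leaving out the richest nucleus of each library left these 5 genes between 1.05 and 1.22.

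Npy, neuropeptide Y, went from 48 to 124 UMIs, or from 151 (111 to 200) to 352 (293 to 420) CPM, a ratio of 1.22 (0.73 to 1.73). The nuclei with a UMI numbered 19 of 84 and 24 of 86, and those with at least 5 UMIs 2 and 7, which held 20 of the 48 and 92 of the 124 UMIs. Without the nuclei at 5 or more Cck UMIs the ratio was 0.50 (−0.10 to 1.11), an interval that spans 0, and with a Vip minimum of 1 UMI it was 0.76. It was also above 0 in Sst nuclei, at 0.37 (0.24 to 0.50), in Pvalb nuclei, at 1.04 (0.42 to 1.70), and in Lamp5 nuclei, at 0.25 (0.06 to 0.45), while Slc17a7 nuclei were at −0.11 (−0.26 to 0.04) and Mog nuclei at −0.58 (−1.20 to 0.05).

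Cck went from 550 (472 to 638) to 886 (790 to 990) CPM, a ratio of 0.69 (0.41 to 0.96) that did not reach 2-fold. Nuclei with at least 10 UMIs numbered 3 and 6, and held 68 of the 175 and 189 of the 312 UMIs. Without the nuclei at 5 or more Cck UMIs, the ratio was 0.28 (−0.19 to 0.75), at 250 and 303 CPM over 74 and 74 nuclei. That filter cuts off the high values of the measured gene itself, so nothing is concluded from it. Cck was also higher in Slc17a7 nuclei, at 0.36 (0.31 to 0.40), and in Lamp5 nuclei, at 0.86 (0.31 to 1.43), and was at −0.10 (−0.32 to 0.13) in Sst nuclei. Crh, at 0.05 (−0.42 to 0.53), Tac2, at −0.21 (−0.66 to 0.23), and Penk, at −0.15 (−0.88 to 0.58), had intervals that span 0. Cxcl14 was at 0.46 (0.07 to 0.87) and Igf1 at −0.05 (−0.36 to 0.27). Over all 16 listed peptides, Vip left out, the summed ratio was 0.45 (0.28 to 0.63), with Npy and Cck the members whose own interval lay above 0. Of the 450 and 682 UMIs in that sum, Npy gave 48 and 124 and Cck 175 and 312. The median ratio of the 5 peptides with 50 UMIs was 0.05, so the summed ratio does not describe the list as a whole.

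On the lower side, Cadps2, which primes dense-core vesicles that release peptides, went from 255 (202 to 317) to 114 (81.1 to 155) CPM, a ratio of −1.17 (−1.75 to −0.60). It was lower in Sst nuclei too, at −0.54 (−0.85 to −0.23), and in Pvalb nuclei, at −0.88 (−1.59 to −0.18), and was at −0.43 (−1.39 to 0.55) in Lamp5, −0.54 (−1.10 to 0.01) in Mog and −0.09 (−0.14 to −0.03) in Slc17a7 nuclei. Counting nuclei with 1 Vip UMI as well moved it to −0.25. Of the 13 peptide processing genes, 10 had 50 UMIs, and Cadps2 was the 1 past 2-fold, with Pam, an amidating enzyme, at −0.37 (−0.66 to −0.09) and Pcsk1n, an inhibitor of prohormone convertase, at 0.67 (0.16 to 1.20). The non-coding genes 4930555F03Rik, at −1.63 (−2.24 to −1.05), and Gm28928, at −1.45 (−2.06 to −0.86), were the lowest, and Gm28928 was at 0.52 (0.38 to 0.66) in the other interneurons together and −1.22 in Lamp5 nuclei alone. The remaining lower genes that were named lay between −1.35 and −1.01, with intervals from −2.26 to −0.32.

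Receptor and channel lists stayed near 0 as sums, and no listed gene of either kind with at least 50 UMIs passed 2-fold. As 0.944% of all tested genes passed 2-fold, that absence does not set these short lists apart. The 25 glutamate receptors summed to a ratio of 0.07 (0.01 to 0.13). Of the 19 with 50 UMIs, Gria3 (0.66), Grm8 (0.39), Grm7 (0.33) and Grik2 (0.33) had intervals above 0 and Grik1 below. Among all tested genes 3.92% of intervals lay above 0 and 4.14% below. Grik1, a kainate receptor subunit, went from 162 to 92 UMIs, or from 510 to 261 CPM, a ratio of −0.96 (−1.35 to −0.59), against 0.04 (−0.05 to 0.13) in the other interneurons. The 15 GABA receptors summed to −0.14 (−0.24 to −0.03), with Gabrg3 at −0.46 (−0.68 to −0.25). The 34 potassium and HCN channels summed to 0.04 (−0.01 to 0.10) and the 23 sodium and calcium channels to 0.14 (0.05 to 0.22). Among adhesion genes, Cntnap2, a contactin-associated protein, went from 6194 to 4238 CPM, a ratio of −0.55 (−0.65 to −0.45), against −0.04 in the other interneurons, while Erbb4 was at −0.01 (−0.10 to 0.09). Whether these genes differ between Vip and other interneurons in their response was not tested.

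**Figure D5:**
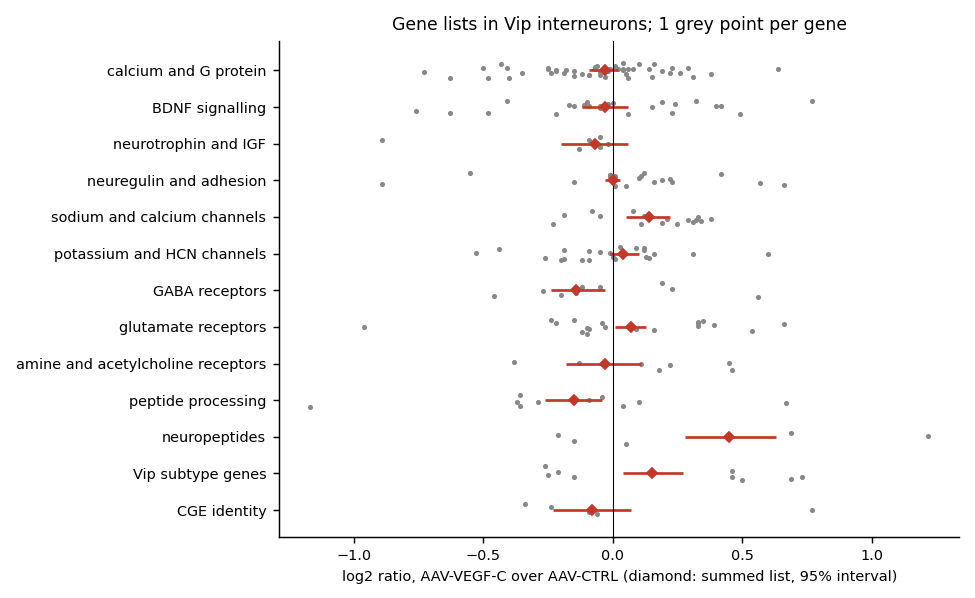
Log2 ratio of AAV-VEGF-C over AAV-CTRL in Vip interneurons for the 13 gene lists with at least 5 genes of 50 UMIs or more, with 1 grey point per such gene and a red diamond with its 95% counting interval for the summed UMIs of the whole list. The neuropeptides summed to 0.45 and the other 12 lists to between −0.15 and 0.15. The median of the 5 neuropeptides with 50 UMIs was 0.05, and only Npy and Cck had their own interval above 0.

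The genes of the delivered pathway were scarce in these nuclei. Vegfc gave 2 and 4 UMIs, or 6.29 (0.762 to 22.7) and 11.4 (3.09 to 29.1) CPM, with a UMI in 1.25% and 1.20% of thinned Vip nuclei against 1.45% and 2.73% of Slc17a7 nuclei. Over all nuclei of the cortex-labelled libraries Vegfc was at 12.2 and 11.6 CPM, so it was not higher in AAV-VEGF-C there. Its receptors Flt4 (VEGF receptor 3) and Kdr (VEGF receptor 2) had 0 UMIs in both libraries, where 3 UMIs would be 9.44 and 8.52 CPM. The co-receptor Nrp1 gave 26 and 32 UMIs, at 0.15 (−0.64 to 0.96), and Nrp2 18 and 17, at −0.23 (−1.28 to 0.81). Nrp1 was higher than in the other interneurons, at 81.8 and 90.8 CPM against 38.9 and 43.4. Whether a vector transcript would be counted as Vegfc or Flt4 was not tested.

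BDNF signalling was read because the study asked about neurotrophic signalling. Bdnf itself gave 3 and 5 UMIs, or 9.44 and 14.2 CPM, where Sst nuclei were at 26.6 and 22.1 CPM. Ntrk2, its receptor, was at 1230 (1111 to 1358) and 1209 (1097 to 1330) CPM, a ratio of −0.02 (−0.23 to 0.18). The 47 genes of BDNF signalling summed to −0.03 (−0.12 to 0.06), and of the 24 with 50 UMIs, 0 passed 2-fold in either direction, with a median of −0.03 against −0.01 for all genes. With 0.944% of all genes past 2-fold, a count of 0 among so few genes sets no list apart. Of these 24, Hras and Gsk3b had intervals above 0 and Braf and Camk2b below it, where 3.92% of all tested genes lay above and 4.14% below. The 62 calcium and G protein genes summed to −0.03 (−0.09 to 0.02), with 0 of 50 past 2-fold. Igfbp5, a binding protein of insulin-like growth factors, was at −0.89 (−1.63 to −0.17) in Vip interneurons, and at −0.79 (−1.25 to −0.34) in Sst nuclei. The 19 immediate early genes summed to −0.14 (−0.40 to 0.13).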

How the data were processed

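The deposited values were UMI counts per gene and nucleus. The authors isolated nuclei, made droplet-based 3′ libraries (10x Genomics) and counted with Cell Ranger, 5.0.1 per the file headers and 5.1.1 per the submitters' processing notes, on mm10. Whether intronic reads were counted is not given in the sources used here. Counts of 31053 genes in 4 libraries were used as deposited, with no filter on nuclei beyond the rules stated in the text. Doublets were called with Scrublet (scanpy 1.11.5, expected rate 8%) in the cortex-labelled libraries. Those called were kept, and left out as an alternative.

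UMIs were summed over gated nuclei and scaled to 1000000 (CPM). Levels carry exact Poisson intervals, shares exact Clopper-Pearson intervals and ratios exact conditional binomial intervals, all at 95% and for counting error only (Python 3.11.15, numpy 2.4.6, scipy 1.17.1, pandas 2.3.3). The code for ratios and their intervals was checked on simulated counts with known ratios. With 1 library per group, no test between groups was made. A gene was counted past 2-fold if it had at least 50 UMIs (30 for subsets). For detection shares nuclei were thinned to 2000 UMIs. A level at 0 is read against a floor of 3 UMIs.

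Named genes were, between AAV labels, the 10 per direction past 2-fold with the interval bound nearest 0 farthest from it, and against other interneurons the 15 higher and 10 lower by the same ordering, leaving out genes of the gates, and, between Calb2 and Cck nuclei, up to 10 per side. Genes of 28 lists and Vegfc, Flt4, Kdr, Nrp1, Nrp2, Bdnf and Ntrk2 could be named in any case. The rule, the members and the lists were chosen with earlier results of these data known. Alternatives changed the Vip minimum, doublets, scaling, thinning, the gene minimum, the compared nuclei and the subset limit. The subsets by 5 Cck UMIs, by Crh and Tac2 and by Chat, and the genes named for them, were chosen after the values were seen, as were the examples given from the lists. Of 8 genes looked for among the RefSeq promoters 6 had an entry.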

Additional observations from a re-analysis of the deposited data

Results flagged for a closer look

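Outside the libraries used above, 10 nuclei of the library labelled striatum AAV-CTRL and 8 of that labelled striatum AAV-VEGF-C met the same Vip interneuron rule. They held 228 and 551 CPM of Sox6, against 31.5 and 14.2 in the Vip interneurons of the cortex-labelled libraries. Prox1 was at 211 and 53.3 CPM against 299 and 236, and Igf1 at 158 and 17.8 against 519 and 502. With so few nuclei these levels are uncertain.

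For 6 named genes the ratio between AAV labels had an interval on 1 side of 0 in Vip interneurons and on the other side in the Sst, Pvalb and Lamp5 nuclei together. These were Ttr (2.66 and −0.46), Trpm3 (1.10 and −1.21), Enpp2 (1.27 and −0.32), Gm28928 (−1.45 and 0.52), Gm45321 (−1.31 and 0.41) and Ndufc2 (−1.19 and 0.40). In Lamp5 nuclei alone Ttr (1.65), Enpp2 (1.32), Gm28928 (−1.22) and Gm45321 (−1.16) lay on the same side of 0 as in Vip interneurons. Without 1 nucleus called a doublet, Enpp2 in Vip interneurons was at 0.72 (−0.04 to 1.5), an interval that spans 0. The difference between the sets of nuclei was not tested. In Sst nuclei of the AAV-CTRL library 545 of 773 Ttr UMIs also lay in 1 nucleus, as did 592 of 796 in the AAV-VEGF-C library.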

How the results depend on the processing

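No paired analysis was possible because each group is 1 library with no replicate number. The share of Vip interneurons kept a log2 ratio between −0.24 and −0.08 under 5 alternatives, each interval spanning 0.

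Between AAV labels, 11 genes higher and 15 lower became 4 and 8 with nuclei thinned to 2000 UMIs, 152 and 148 with a gene minimum of 20 UMIs, and 1 and 0 with a minimum of 200. Thinning and the gene minimum also change how many genes are tested, so these counts cannot be read as shares. Of 104 list medians 99 stayed within the counting interval of the list's middle gene. The 5 others were neuregulin and adhesion genes with a Vip minimum of 1 UMI (0.14 in place of 0.05), Vip subtype genes, at 0.46, after thinning (−0.19) and with a gene minimum of 20 UMIs (−0.01), and neuropeptides, at 0.05, after thinning (0.54) and with a minimum of 200 UMIs (0.69). Median of ratios scaling left both gene counts within 1.5 times.

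Against other interneurons, 120 genes higher and 288 lower became 62 and 163 after thinning, 75 and 96 against Lamp5 nuclei alone and 51 and 111 with a gene minimum of 200 UMIs. With a Vip minimum of 1 UMI the lower genes numbered 152. Fewer genes reach a higher minimum, or the same minimum after thinning, and otherwise the cause was not tested.

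Shares by Calb2 and Cck moved with depth and limit. After thinning, AAV-CTRL nuclei with Calb2 alone were 2.5%, with both 0.0% and with neither 51.2%, and AAV-VEGF-C nuclei with neither 38.6%. With a limit of 2 UMIs the shares with Calb2 alone, Cck alone, both and neither were 0.0%, 35.7%, 0.0% and 64.3% in AAV-CTRL and 1.16%, 47.7%, 0.0% and 51.2% in AAV-VEGF-C. Leaving out nuclei over 6000 UMIs or the nuclei richest in a gene was chosen after seeing the data. Of the recomputed values of the 20 genes named between AAV labels, 132 stayed within the main interval and 8 did not, and none changed direction. Depth limits these ratios. Metap2, with 15 and 36 UMIs, had an interval from 0.21 to 2.09, so differences under 2-fold were mostly not detectable for genes near 50 UMIs.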
